A study of Mus musculus with 6 samples.

Results

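The 9 genes described here make, bind, sense and break down retinoic acid (RA): the synthesis enzymes *Aldh1a1*, *Aldh1a2* and *Aldh1a3*, the binding proteins *Crabp1* and *Crabp2*, the nuclear receptors *Rara*, *Rarb* and *Rarg*, and the degrading enzyme *Cyp26b1*. They were chosen by symbol, and all 9 were found among the 19446 genes of the expression table. Transcriptomes of cultured cardiac fibroblasts (CFs) had been compared by RNA-seq between wild-type (WT) mice and CharmeKO mice, with 3 libraries per group, to see what loss of the long non-coding RNA *Charme* changes in these cells. Both groups were C57BL/6J mice, 5 weeks old per the labels, and no treatment is named for either. In CharmeKO mice a polyadenylation signal inserted into the *Charme* locus interrupts the transcript and is carried by every cell. Per the study's methods, CFs grew out of fragments of atrial tissue collected from littermates, on fibronectin in medium rich in serum, and were used at early passage. Those methods state a number of littermates and an age range around 5 weeks, without tying either to a library. The labels do not say how many mice stand behind a library.

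Libraries held 38330019 to 46797446 reads assigned to genes, and 3 reads, the most that a count of 0 allows, are 0.0641 to 0.0783 CPM (reads relative to the total of the library). Such limits hold for counting error alone, because PCR copies of a molecule were not told apart. The feature CUFF405, read here as the added *Charme* locus, drew 5, 15 and 11 reads from WT 1 to 3, against 0, 6 and 3 from CharmeKO 1 to 3. *Xist*, transcribed from the inactive X chromosome of female cells, was at 232, 283 and 681 CPM in WT 1 to 3. In CharmeKO 1 to 3 it was at 50.3, 0.201 and 200 CPM, lower than in WT at each number. *Ddx3y*, on the Y chromosome, was lowest in WT 3 (2.18 CPM, against 48.9 to 81.8 CPM in the other 5 libraries). The makeup by sex thus differed between the genotypes, and its part in their differences was not tested. All 8 fibroblast markers were above 0 in every library, among them *Col1a1* at 9285 to 20004 CPM. The 7 endothelial and endocardial markers in the table summed to 70.6 to 605 CPM, most of it *Npr3* (65.2 to 603 CPM), while *Pecam1* stayed at or under 0.157 CPM. Of the 10 cardiomyocyte markers, 5 had a row and summed to 3.82 to 23.7 CPM, *Tnnt2* and *Myl4* among them, and 5 had none, *Myh6* and *Nppa* among them. The 5 Schwann cell markers summed to 3.29 to 21.0 CPM, and none of the 4 adipocyte markers had a row.

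RA is made from vitamin A. Retinol is oxidised to retinaldehyde, and the ALDH1A enzymes then oxidise retinaldehyde to RA in an irreversible step. CRABP1 and CRABP2 carry RA within the cell, the receptors RARα, RARβ and RARγ bind RA response elements in DNA together with retinoid X receptors (RXRs), and CYP26 enzymes hydroxylate RA and so end its action. In the developing heart RA patterns the atria, and the epicardium, from which many CFs descend, is a site of its synthesis by ALDH1A2.

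*Rarb* is a textbook target of RA itself, through a direct repeat close to the start of its RARβ2 transcript, and so its promoter was read first. RefSeq promoter windows (250 bases before to 50 bases after a start site, GRCm38.p6) were given for 7 of the 9 genes, 12 windows in all, with none for *Aldh1a3* and *Crabp2*. Both strands were searched for pairs of hexamers in the same direction, each hexamer being A or G, then G, then G or T, then TCA, spaced by 5 bases (DR5), 2 bases (DR2) or 1 base (DR1). The *Rarb* window held a DR5 at bases -53 to -37 from the start site, the hexamers GGTTCA and AGTTCA around 5 bases. Shown because it is the only repeat of these 3 kinds found in the 12 windows, it lies at chr14:16575506-16575535 on the minus strand, 5′ to 3′, with the repeat and its spacer in capitals.
*Rarb* element: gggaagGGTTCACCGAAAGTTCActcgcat

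These 30 bases lie inside the *Rarb* gene as GENCODE M21 annotates it, in the 5′ UTR of 2 of the 4 *Rarb* transcripts that span them, since the annotated starts vary there. A DR5 of this form was present in 32 of all 32851 windows (0.0974%), which belonged to 31 genes. The only other gene among those 31 from the lists used here was *Cyp26a1*, the relative of *Cyp26b1*, which had no row in the table. DR2 and DR1 repeats occurred in 0.268% and 0.222% of all windows and in none of the 12. The plain hexamer AGGTCA was present in 16.3% of all windows and in 2 of the 12, a *Rara* window (bases 34 to 39 after the start) and a *Rarg* window (bases -225 to -220, on the other strand). The *Aldh1a2* window was the richest of the 12 in G and C, at 78.0% with 50 CpG sites, against medians of 52.7% and 7 over all windows. A match is a description of these letters and does not show binding.

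None of the 9 RA genes passed the threshold between CharmeKO and WT (limma on log2(normalised value + 1), adjusted p = 0.9999 for each). The same test called 0 of the 15948 genes tested (0.0%), and 143 genes (0.897%) had an unadjusted p below 0.05, none of them among the 9. All 9 passed the filter on low reads. The log2 fold change (CharmeKO minus WT) was below 0 for 6 of the 9, against 49.6% of all genes, with a median of -0.08 beside 0.00 over all genes. Its size was at least 1 for 1 of the 9, *Aldh1a2*, against 5.04% of all genes. In no gene of the 9 were the 3 WT and the 3 CharmeKO values apart, as they were in 1.98% of all genes with CharmeKO lower and in 2.14% with CharmeKO higher.

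The synthesis enzymes varied more between cultures of a genotype than between the genotypes. *Aldh1a1*, the enzyme with the most reads of the 3, was at 343, 109 and 39.6 CPM in WT 1, 2 and 3 and at 276, 180 and 148 CPM in CharmeKO 1, 2 and 3. All 3 CharmeKO values thus lay inside the WT range, which spanned an 8.67-fold difference. The fold change was 0.74 on the log2 scale (SE 0.75, 95% interval -1.07 to 2.55). With edgeR and DESeq2 it was 0.27 and 0.26. It rested on WT 3: without that library it was -0.02, and without WT 1 it was 1.54.

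*Aldh1a2*, known for RA synthesis in the epicardium and in embryonic heart, was at 16.2, 0.991 and 33.6 CPM in WT and at 15.6, 1.48 and 1.67 CPM in CharmeKO. It was thus high in WT 1, WT 3 and CharmeKO 1 and near 1 CPM in the rest, and the number 1 libraries of the 2 genotypes were almost equal. The fold change was -1.30 (SE 1.52, 95% interval -4.95 to 2.34), the largest in size of the 9 and the least precise. WT 3 carried most of it, with -0.28 when that library was left out, while without WT 2 it was -2.83. In WT 3 the smooth muscle marker *Cnn1* was also at its highest (347 CPM, against 2.08 to 22.7 CPM elsewhere). The whole smooth muscle and pericyte list set WT 3 apart less, with sums of 5717 CPM there, 3286 CPM in WT 1 and 3084 CPM in CharmeKO 1. In WT 2, CharmeKO 2 and CharmeKO 3 it summed to 784, 287 and 774 CPM. WT 3 was also the library with the most *Xist*. The part of smooth muscle cells or of sex in the result was not tested.

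*Aldh1a3* was the scarcest of the 3 enzymes, with 13 to 238 reads per library. It was at 5.51, 0.835 and 0.623 CPM in WT and at 3.85, 0.326 and 0.513 CPM in CharmeKO. Both number 1 libraries were several times above the other 4, and the genotypes overlapped. On the normalised value + 1, the scale of every fold within a pair here, CharmeKO was lower in each of the 3 same-numbered pairs, by 1.41-, 2.55- and 1.25-fold, and the fold change was -0.73 (SE 1.21). Without WT 1 it was 0.25.

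**Figure D1:**
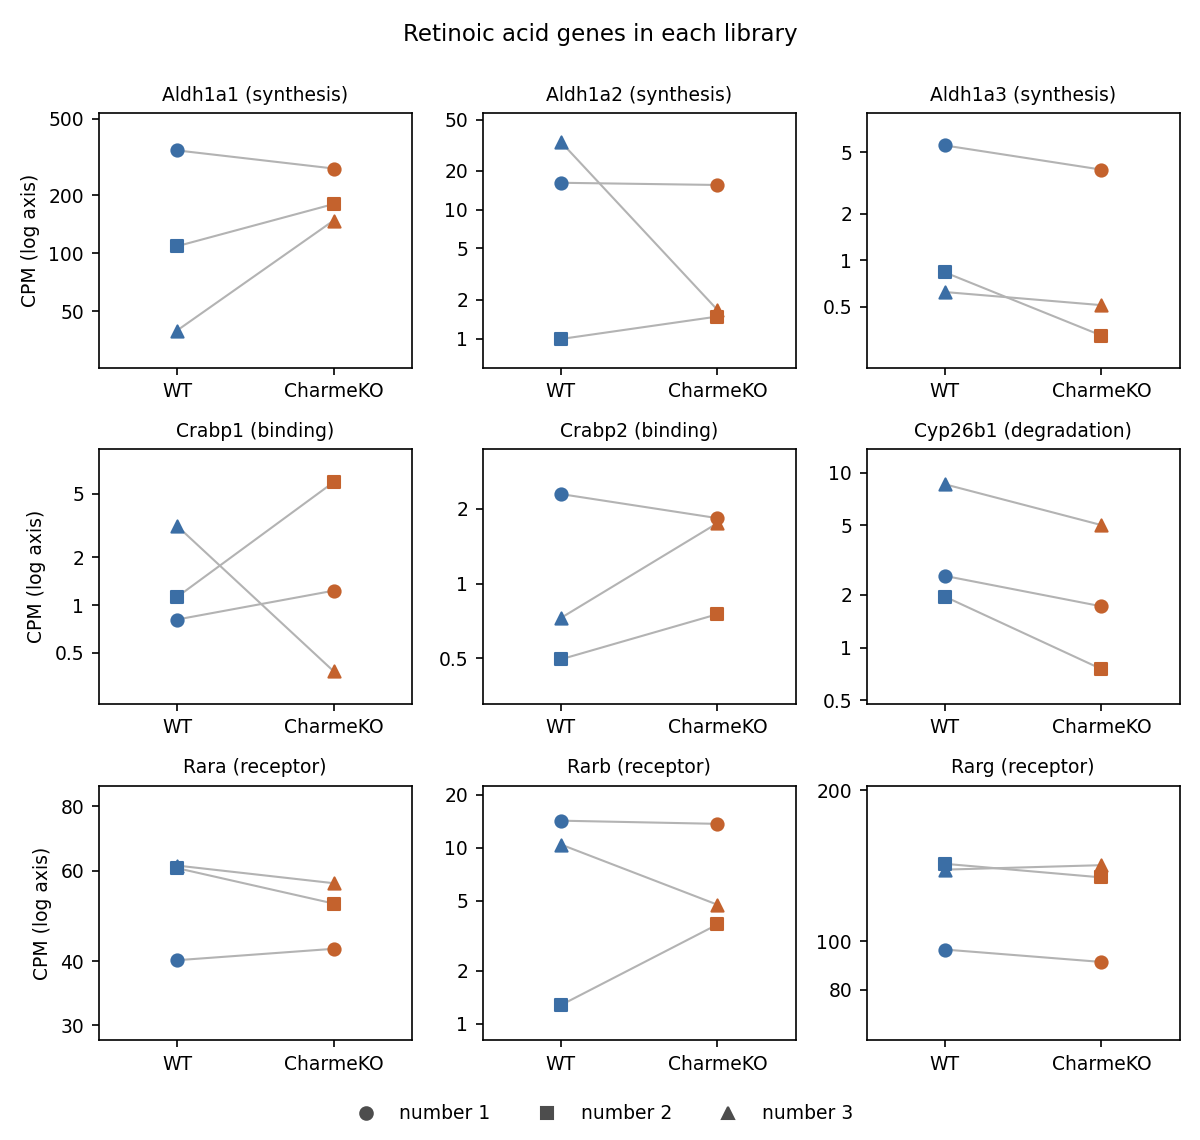
Level of each RA gene in every library, in CPM on a log axis that differs between panels, with WT in blue and CharmeKO in orange and a line joining the libraries of the same number. *Cyp26b1* falls along all 3 lines, *Aldh1a2* runs from 0.991 to 33.6 CPM, and in no panel are the genotypes apart.

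The cellular RA-binding proteins were scarce, and their levels did not follow each other. *Crabp1* was at 0.811, 1.12 and 3.14 CPM in WT and at 1.23, 5.90 and 0.385 CPM in CharmeKO. CharmeKO held both the highest and the lowest value. In pair 2 the CharmeKO library was 4.95-fold above WT and in pair 3 it was 8.04-fold below. The fold change between the genotypes was -0.03 (SE 1.03), on 18 to 235 reads, with a sign that changed with the settings of the fit.

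*Crabp2*, which hands RA over to its receptors in the nucleus, was at 2.29, 0.496 and 0.727 CPM in WT and at 1.83, 0.753 and 1.75 CPM in CharmeKO. The WT values enclosed all 3 CharmeKO values. The fold change was 0.47 (SE 0.71, 95% interval -1.24 to 2.18), and it ranged from 0.00 to 1.11 with a library left out.

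The receptors split into a steady pair and a variable gene. *Rarg* was at 96.2, 143 and 139 CPM in WT and at 90.8, 134 and 142 CPM in CharmeKO. The libraries numbered 1 were the lowest of both genotypes and the other 4 lay close together. Its fold change was -0.08 (SE 0.23), with a 95% interval of -0.63 to 0.47. Normalised *Rarg* was lower in CharmeKO in all 3 pairs, by 1.02- to 1.11-fold, but in CPM pair 3 had the opposite order.

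*Rara* was at 40.1, 60.7 and 61.4 CPM in WT and at 42.3, 51.8 and 56.7 CPM in CharmeKO. Here too the number 1 libraries were lowest, and the highest value exceeded the lowest by 1.53-fold. Between the genotypes the fold change was -0.12 (SE 0.21, 95% interval -0.64 to 0.39). A small gene, *Gm22061*, overlaps *Rara* on the same strand, and reads over both are lost when only reads in a single gene are counted.

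*Rarb*, the gene with the DR5 element shown above, was at 14.2, 1.28 and 10.4 CPM in WT and at 13.6, 3.67 and 4.74 CPM in CharmeKO. It was high in WT 1, WT 3 and CharmeKO 1, the libraries that also had the most *Aldh1a2*, and its spread over the 6 libraries was 11.1-fold. In pair 1 the genotypes differed by 1.03-fold, in pair 2 CharmeKO was 2.71-fold higher and in pair 3 it was 2.27-fold lower. The fold change was 0.07 (SE 1.01), and its sign changed with the settings of the fit and with the library left out (-1.02 to 0.73).

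*Cyp26b1*, which breaks RA down, was at 2.57, 1.96 and 8.60 CPM in WT and at 1.72, 0.753 and 5.02 CPM in CharmeKO. Both number 3 libraries were above the other 4, and within each pair CharmeKO was lower. Normalised values + 1 were lower by 1.47-fold in pair 1, 2.66-fold in pair 2 and 1.78-fold in pair 3. On the log2 scale the change was -0.93 (SE 0.86, 95% interval -2.99 to 1.12). With the replicate number as a block in limma the SE fell to 0.27, and the adjusted p was 0.800, so that it did not pass there either. It was the only gene of the 9 under an unadjusted 0.05 in the blocked fit, which put 5.37% of all genes there.

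Within the same-numbered pairs, 3 of the 9 genes were lower in CharmeKO in all 3 pairs (*Aldh1a3*, *Rarg* and *Cyp26b1*), against 14.0% of all genes tested, 0 were higher in all 3 pairs, against 16.4% of all genes, and 6 were mixed. DESeq2 on the recovered reads called 8 genes (0.0502%), and with the block 64 genes (0.401%), none of them among the 9 in either fit. The blocked fit gave *Cyp26b1* an adjusted p of 0.473.

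**Figure D2:**
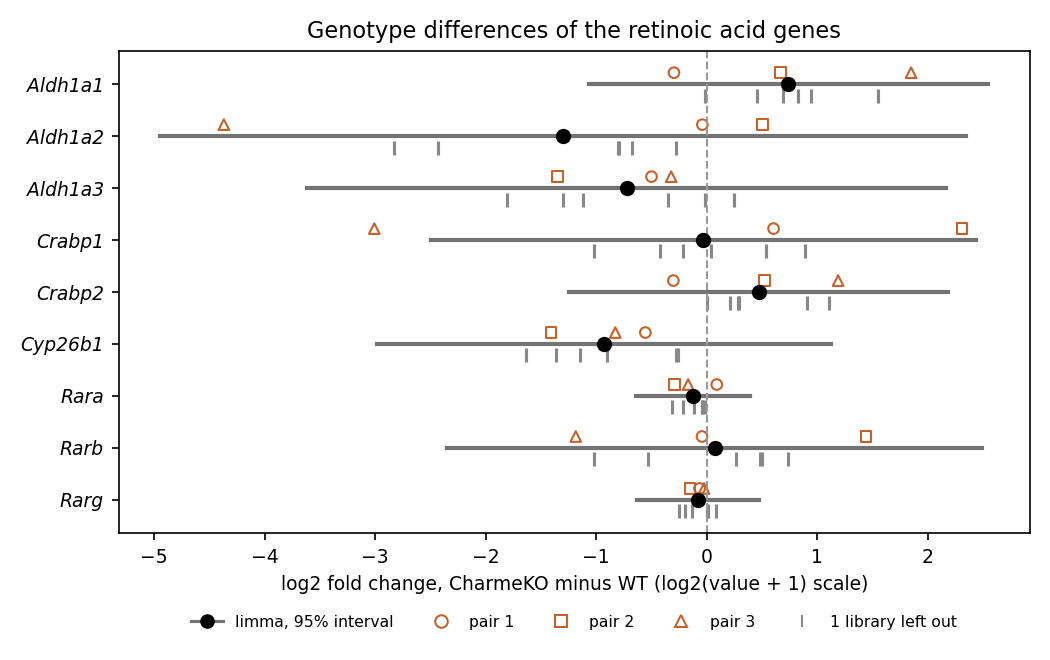
Log2 fold change, CharmeKO minus WT, of each RA gene on the log2(normalised value + 1) scale (black points, limma, with 95% intervals as bars), above it the difference within each same-numbered pair (open symbols) and below it the value with each library left out in turn (ticks). Every interval includes 0, from the narrowest, that of *Rara* (-0.64 to 0.39), to that of *Aldh1a2* (-4.95 to 2.34).

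Levels were compared between genes as CPM per kb of exon (GENCODE M21), since longer transcripts give more reads. *Aldh1a1* came first with a mean of 37.0 ± 22.5 CPM per kb (SD, n = 6), followed by *Rarg* at 29.1 ± 5.61. *Aldh1a1* exceeded *Rarg* in 3 of the 6 libraries, so these neighbours did not differ beyond their spread. *Rarg* was above *Rara* (11.9 ± 2.10) in 6 of 6 libraries. *Rara* was above *Aldh1a2* (5.12 ± 5.70) in 5 of 6.

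The lower part of the order was less settled. *Crabp1* followed at 2.62 ± 2.61 CPM per kb, below *Aldh1a2* in 4 of 6 libraries, and *Rarb* at 1.52 ± 1.04, below *Crabp1* in 3 of 6. *Crabp2* (0.990 ± 0.561), *Cyp26b1* (0.642 ± 0.543) and *Aldh1a3* (0.421 ± 0.475) closed the order. Of these, *Rarb* was above *Crabp2* in 4 libraries, *Crabp2* above *Cyp26b1* in 5 and *Cyp26b1* above *Aldh1a3* in 4. From *Rarb* down, the means of neighbours were closer than the SD of either gene.

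Per length, the makeup of the synthesis enzymes differed in a single culture. *Aldh1a1* gave 89.3%, 97.3% and 34.9% of the summed *Aldh1a* signal in WT 1, 2 and 3 and 87.9%, 98.1% and 97.3% in CharmeKO 1, 2 and 3. *Aldh1a2* gave 64.5% in WT 3 and 1.76% to 10.8% in the other 5 libraries. WT 3 thus had both the least *Aldh1a1* and the most *Aldh1a2* of the 6, and its summed signal (23.0 CPM per kb) was close to that of WT 2 (22.6 CPM per kb), where *Aldh1a1* made up nearly all of it.

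The receptor makeup was much steadier. *Rarg* gave 63.5% to 71.5% of the summed *Rar* signal and *Rara* 26.7% to 29.2%. *Rarb* moved from 0.510% in WT 2 to 7.84% in WT 1, and its share was 7.72% in CharmeKO 1. The binding proteins had no steady order, with *Crabp1* at 26.6% to 92.8% of the summed *Crabp* signal. Coding sequences of genes in a family were 67.3% to 72.9% identical in these bases, with identical runs of at most 26 bases.

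**Figure D3:**
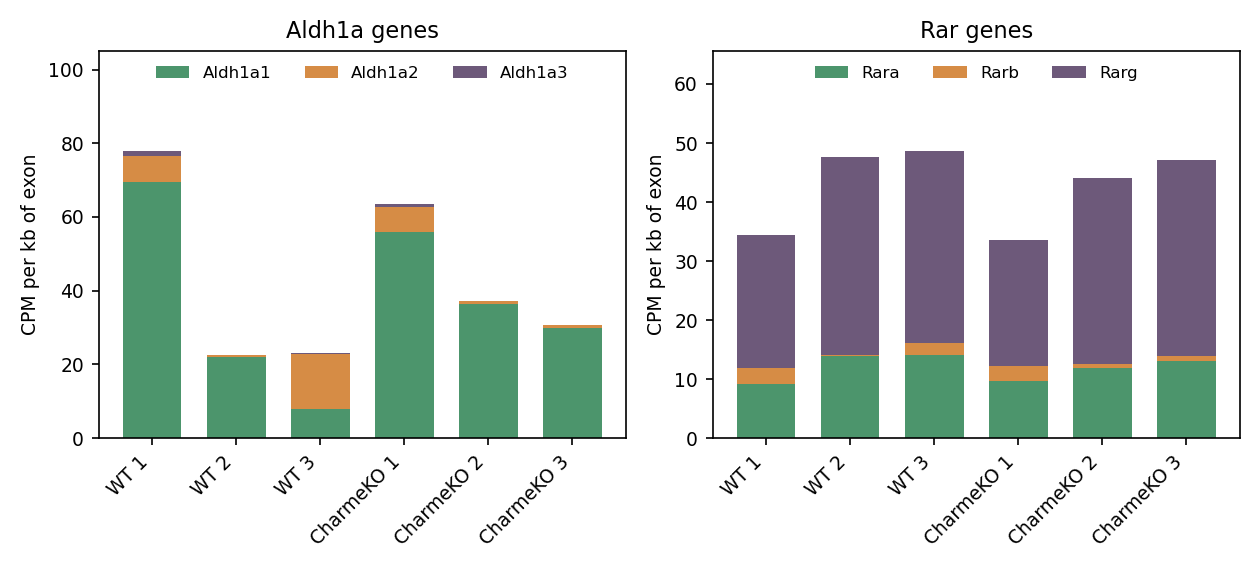
Summed level of the *Aldh1a* genes (left) and of the *Rar* genes (right) in each library, in CPM per kb of exon, with each gene as a coloured part of the bar. *Aldh1a2* makes up 64.5% of the bar in WT 3 and at most 10.8% elsewhere, whereas *Rarg* makes up 63.5% to 71.5% of every receptor bar.

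The replicate number went with more of the variation than the genotype did. Over the 6 libraries, it held a median of 79.8% of the variance of log2 values of the 9 genes, the genotype 7.63% and the rest 13.5%, against medians of 73.8%, 5.91% and 13.5% over all genes. The share of the number was above 50% for 8 of the 9, *Crabp1* being the exception at 20.8%, and for 73.8% of all genes. *Rarg* had the highest share, 96.0%. With 3 numbers against 2 genotypes, some of this difference is fixed by the number of levels. The median SD of the 9 over the libraries was 1.24 log2 units beside 0.42 over all genes, with 7 of the 9 above that median and *Rara* and *Rarg* below it. These medians were not matched for level, and scarce genes of the 9, such as *Aldh1a3* and *Crabp1*, rest on few reads.

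In both libraries numbered 1, *Aldh1a1*, *Aldh1a3*, *Crabp2* and *Rarb* were above the other 4 libraries (4 of 9 genes, against 20.3% of all genes), and *Rara* and *Rarg* were below them (2 of 9, against 25.0%). *Crabp2* had this order only narrowly, with 82 reads in both CharmeKO 1 and CharmeKO 3 (1.83 and 1.75 CPM). Several mesothelial and epicardial markers were also above the other 4 in both number 1 libraries. *Upk1b*, a uroplakin of mesothelium, was at 109 and 103 CPM in WT 1 and CharmeKO 1 and at 0.513 to 7.25 CPM in the other 4. Of the 11 such markers in the table, 6 (*Upk3b*, *Upk1b*, *Msln*, *Lrrn4*, *Tbx18* and *Gpm6a*) were highest in both number 1 libraries. Their whole list summed to 515, 99.1 and 125 CPM in WT and to 539, 177 and 74.0 CPM in CharmeKO, *Krt8* had no row and *Wt1* was lowest in WT 1. Of the 9 macrophage and haematopoietic markers, 5 were also highest in both number 1 libraries, with list sums of 191, 119 and 45.7 CPM in WT and 406, 328 and 25.1 CPM in CharmeKO. The same held for 3 of the 7 endothelial and endocardial markers, 2 of the 5 cardiomyocyte markers, 2 of the 5 Schwann cell markers, 1 of the 8 fibroblast markers and 0 of the 10 smooth muscle and pericyte markers. The part of these cells in the levels was not tested, and in bulk RNA fewer cells of a type and less RNA per cell cannot be told apart. Without both number 1 libraries the fold changes were 1.26 for *Aldh1a1*, -0.84 for *Aldh1a3*, 0.85 for *Crabp2* and 0.13 for *Rarb*, and again 0 of the 9 passed.

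The smooth muscle and pericyte list followed another order, with sums of 3286, 784 and 5717 CPM in WT and 3084, 287 and 774 CPM in CharmeKO. Much of each sum was its contractile gene *Acta2*, also the usual mark of activated fibroblasts. *Acta2* was at 2279, 445 and 3685 CPM in WT and at 2110, 138 and 497 CPM in CharmeKO. The order of the sums is thus in large part that of *Acta2*. The libraries with the most *Acta2* (WT 3, WT 1 and CharmeKO 1) were those with the most *Aldh1a2* and *Rarb*. The part of smooth muscle or activated cells in those levels was not tested.

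**Figure D4:**
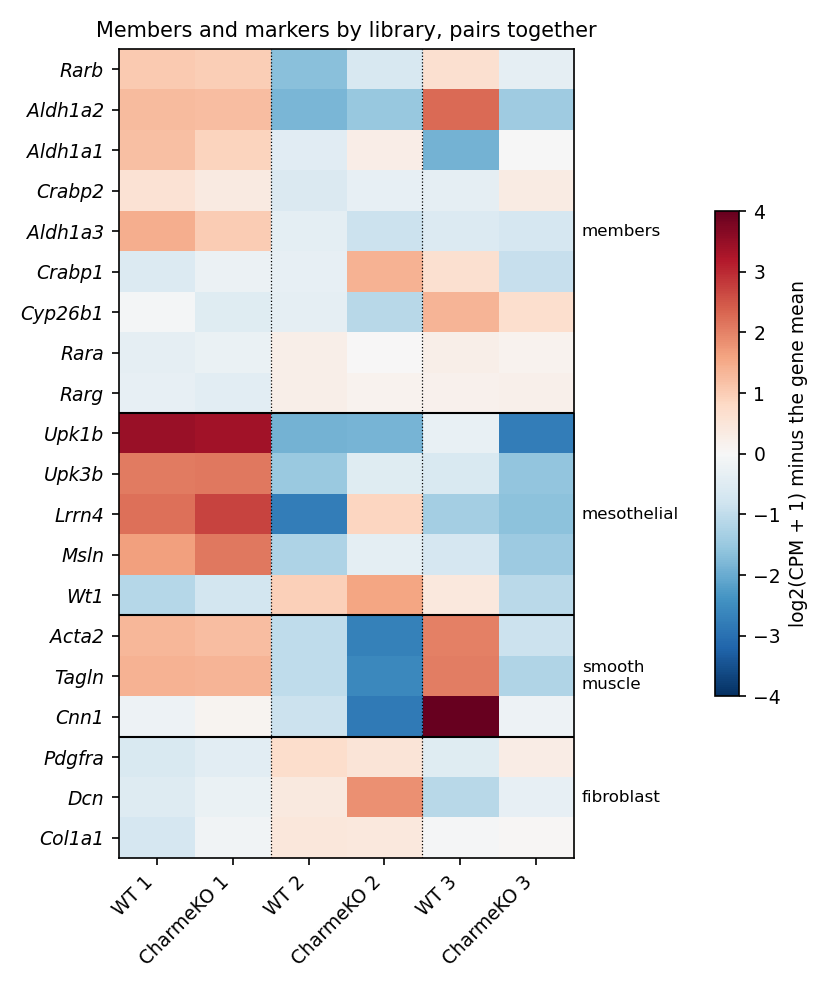
Log2(CPM + 1) of each gene minus its own mean over the 6 libraries, with same-numbered libraries side by side. Shown are the RA genes and a selection from the mesothelial, smooth muscle and fibroblast markers. The mesothelial markers shown are *Upk1b*, *Upk3b*, *Lrrn4*, *Msln* and *Wt1*, all but *Wt1* highest in both number 1 libraries. *Krt19*, *Krt18*, *Bnc1* and *Muc16*, which did not have that order, are left out. *Upk1b* (109 and 103 CPM) and *Aldh1a3* (5.51 and 3.85 CPM) are high in both number 1 columns, and WT 3 stands out for *Aldh1a2* (33.6 CPM) and *Cnn1* (347 CPM). *Acta2* is high in WT 1 and CharmeKO 1 as well as in WT 3.

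The pattern of the 3 RA genes with the largest SD of log2(CPM + 1) was set beside that of 11593 well-measured genes, by Pearson's r on that scale over the 6 libraries. This scale compresses scarce genes, and on the log2(normalised value + 1) scale *Aldh1a3* (SD 1.67) and *Crabp1* (1.36) varied more than *Aldh1a1* (1.12). With so few points from shared cultures, an r near 1 is common and is given as a description. *Aldh1a2* was most like *Dstn*, an actin-depolymerising factor (r = 0.995), *Hmga2*, a chromatin protein of proliferating mesenchymal cells (r = 0.993), and *Ebf2* (r = 0.992), and 78 genes had an r above 0.95. *Aldh1a1* was most like *Mpc1*, a subunit of the mitochondrial pyruvate carrier (r = 0.991), *Enpp4* (r = 0.989) and *Dnase2a*, a lysosomal nuclease (r = 0.988), with 29 genes above 0.95. *Rarb* was most like *Paf1*, a subunit of a transcription elongation complex (r = 0.998), *Rexo2* (r = 0.995) and *Cfl1*, the actin-severing cofilin (r = 0.995), with 209 genes above 0.95. Among the 9 themselves, *Aldh1a2* and *Rarb* had r = 0.885, whereas *Aldh1a1* had r = -0.13 with *Aldh1a2* and r = 0.26 with *Rarb*.

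The other genes of the pathway were read from a list of 59 genes in 6 roles, of which 48 were in the table and 44 were tested. None of the 44 passed the adjusted limma threshold, as was so for all 15948 genes tested (0.0%), so this does not set them apart. At an unadjusted limma p below 0.05 there were 0 of 44, beside 0.897% of all genes. Of the 44, 24 had a fold change above 0 and 20 below, with a median of 0.04 beside 0.00 over all genes, and 7 were lower and 7 higher in CharmeKO in all 3 pairs, beside 14.0% and 16.4% of all genes. Normalised values of the genotypes did not overlap in 2 of the 44 (*Dgat1* and *Dhrs4*, the latter named after its values were seen), both with CharmeKO higher, beside 2.14% of all genes. *Stra6*, the cell-surface receptor for retinol-binding protein, *Lrat*, which stores retinol as esters, and *Rxrg* had no row.

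Retinol uptake and storage was represented by 5 tested genes, all with a fold change above 0 (0.08 to 0.87), where 49.6% of all genes were below 0. The lowest unadjusted limma p of the 5 was 0.217 (*Dgat1*). Of the 5, 2 were higher in CharmeKO in all 3 pairs, beside 16.4% of all genes. *Scarb1*, a scavenger receptor that takes up carotenoids, lay between 36.7 and 77.1 CPM, and *Dgat1*, which can esterify retinol, between 20.4 and 28.3 CPM. The genotypes overlapped for *Scarb1*, while all 3 CharmeKO values of *Dgat1* (22.9, 28.3 and 24.4 CPM) were above all 3 WT values (22.2, 20.6 and 20.4 CPM), without passing the test.

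Conversion between retinol and retinaldehyde was represented by 12 tested genes, 4 above 0 and 8 below. *Dhrs3*, which turns retinaldehyde back into retinol and is itself induced by RA, was at 63.1, 122 and 128 CPM in WT and 96.0, 155 and 83.2 CPM in CharmeKO. Its fold change was 0.08 (SE 0.34), and the sign changed with the library left out. At 36.8 ± 11.3 CPM per kb (SD, n = 6), it stood level with *Aldh1a1*. *Adh5* was at 47.5 to 69.2 CPM, and *Rdh11*, a retinaldehyde reductase, was at 23.6 to 35.8 CPM and lower in CharmeKO in all 3 pairs.

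*Fabp5*, a lipid carrier that also delivers RA to the receptor PPARδ, was the only further carrier or degrading enzyme tested. It was at 43.2, 23.5 and 16.9 CPM in WT and at 65.1, 34.6 and 49.4 CPM in CharmeKO. Each CharmeKO library was above the WT library of its number, although CharmeKO 2 was below WT 1. Its fold change was 0.87 (SE 0.42). Per length it was far above both CRABP genes, at 10.9 ± 4.95 CPM per kb beside 2.62 for *Crabp1* and 0.990 for *Crabp2*. *Cyp26c1* was at 0.130 CPM or less, around the level of a few reads.

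Listed with the partner receptors was *Ppard*, the gene of the PPARδ named above, which is not a partner of RARs. The 3 genes tested in this role were well expressed, with fold changes of 0.04 to 0.18. *Rxra*, the partner of RARs on DNA, was at 89.4 to 140 CPM in WT and 91.7 to 155 CPM in CharmeKO, with a fold change of 0.12 (SE 0.24). *Ppard* was at 53.1 to 66.7 CPM and *Rxrb* at 29.8 to 57.0 CPM. Per length *Rxra* stood at 20.8 ± 5.08 CPM per kb, between *Rarg* and *Rara*.

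The 11 coregulators were all tested, 4 above 0 and 7 below. *Ncor1*, a corepressor of nuclear receptors, was at 119 to 234 CPM and the coactivator *Ep300* at 86.3 to 177 CPM.

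Response genes other than *Rarb* and *Cyp26b1* were represented by 12 tested genes, 7 above 0 and 5 below. *Tgm2*, a transglutaminase induced by RA in many cells, was at 286, 442 and 573 CPM in WT and at 229, 309 and 468 CPM in CharmeKO. It was lower in CharmeKO in all 3 pairs, with a fold change of -0.41 (SE 0.35), and the genotypes overlapped. *Meis2* was at 44.6 to 120 CPM and *Nr2f2* at 57.3 to 136 CPM. *Tgm2* was lowest in the number 1 library of each genotype, where *Rarb* was highest, so these response genes did not share an order. In the blocked fit 3 of the 44 (*Adh7*, *Fabp5* and *Tgm2*) had an unadjusted limma p below 0.05, against 5.37% of all genes, and 0 passed the adjusted threshold.

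**Figure D5:**
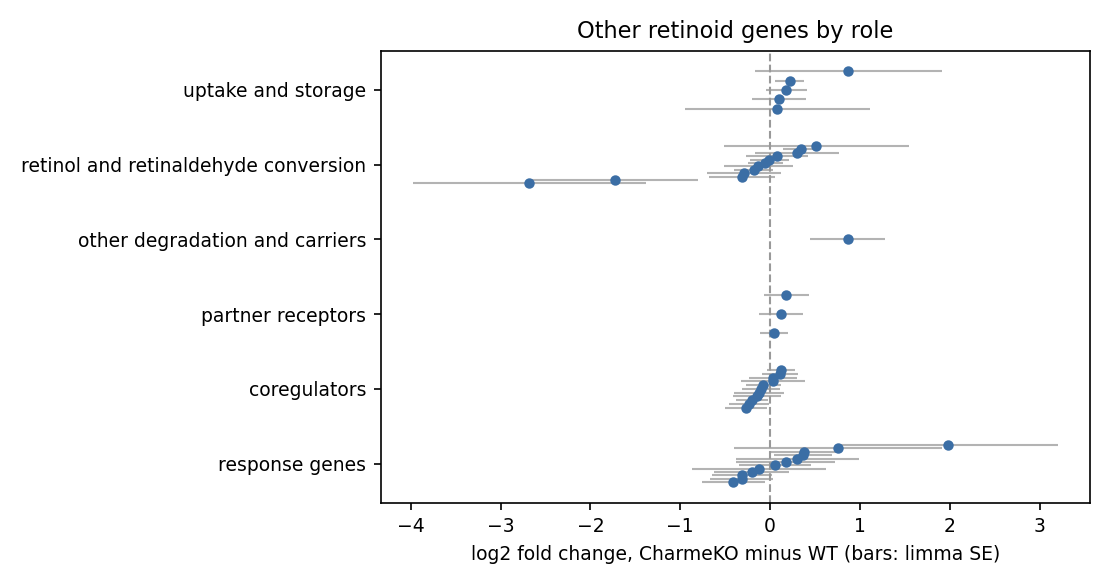
Log2 fold change, CharmeKO minus WT, of the 44 other retinoid genes tested, grouped by role, with points at the limma estimate and bars of 1 SE. All 5 uptake and storage genes lie above 0, as does *Fabp5* (0.87), while conversion, coregulator and response genes lie on both sides, down to -2.68 for *Adh7*. None of the 44 passed the adjusted threshold.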

How the data were processed

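RNA-seq of cultured CFs gave 3 WT and 3 CharmeKO libraries, grouped by their titles. The authors extracted total RNA, made strand-specific poly(A) libraries, aligned reads with STAR, counted reverse-strand reads per gene on Ensembl annotation with *Charme* added, and normalised with DESeq2 (tool versions not given in the sources used here). The deposited values are thus a read signal, that is, gene counts divided by a size factor. Counting keeps reads in a single place and gene. The labels list the builds GRCm39 and GRCh38, so positions, exon lengths and promoters printed here are from GRCm38 references and not from the authors' files. Matching by Ensembl ID gave 99.6% of the genes a length.

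Whole reads were recovered by division (100% of 116676 values whole within 0.001) and scaled to CPM. Tests used limma 3.58.1 (R 4.3.3) on log2(value + 1) with the trend option, with genotype alone in the model, over the 15948 genes that reached 10 reads in 2 or more libraries, Benjamini-Hochberg threshold 0.05, two-sided. Fold changes on this scale understate those of low genes. edgeR 4.0.16 and DESeq2 1.42.0 on the recovered reads, other scalings, filters and pseudocounts, and leaving out libraries were alternatives. Library totals and TMM scaling were fitted on log2(CPM + 1). They thus changed the pseudocount relative to the reads together with the scaling. The labels do not say what the libraries share beyond a number, so p-values may measure partly technical spread. Across genes, the departure of a WT library from its group mean correlated with that of the CharmeKO library of equal number at r = 0.762, 0.514 and 0.217 (unequal numbers -0.643 to 0.222). Numbers were taken to pair libraries, but for number 3 this is weak, since WT 2 with CharmeKO 3 had r = 0.222. Departures within a group sum to 0, so the unequal values are not independent of the equal ones. The pairing was thus read from these same values, and results within pairs and with the block depend on it.

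The members and lists were chosen with earlier results of these data known. All 9 genes were named. Of the pathway list, the 3 genes with the highest mean CPM per role and any past the threshold were named, *Stra6*, *Lrat*, *Rxrg*, *Cyp26a1* and *Adh7* being exceptions chosen afterwards. Some genes that this rule covers are not reported here. Patterns alike were the 3 genes with the highest r among tested genes with a mean of at least 100 reads, for the 3 members with the largest SD. Coding identity stands in for a protein comparison, since no protein sequences were used, and takes the longest reading frame of each gene's coding transcripts.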

Additional observations from a re-analysis of the deposited data

How the results depend on the processing

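None of the 9 RA genes passed the adjusted threshold under any alternative, with limma, edgeR or DESeq2, with or without the replicate block, or with any library left out (0 to 0). The filter of at least 50 reads in at least 3 libraries left 8 of the 9 to test, without *Aldh1a3*. Across settings, between 4 and 7 of the genes tested had a fold change below 0. The count over all genes was 0 except with DESeq2 (8), DESeq2 with the replicate block (64), and that fit without pair 1 (151), pair 2 (13) or pair 3 (86), which was chosen after seeing the data, as was leaving out both number 1 libraries. Of the pathway list, the same fit called 1 gene without pair 1 (*Dhrs9*, lower) and 1 without pair 3 (*Rarres2*, higher), and no other alternative called any. The cause was not tested.

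*Crabp1* (-0.03) turned positive with a pseudocount of 5 (0.0086), library totals (0.14), TMM scaling (0.12), edgeR (0.50), DESeq2 (0.49), edgeR and DESeq2 with the block (0.14 and 0.13) and DESeq2 with the block without pair 3 (1.48). *Rarb* (0.07) turned negative with library totals (-0.0042), TMM scaling (-0.028), edgeR (-0.25), DESeq2 (-0.25) and DESeq2 with the block without pair 2 (-0.61). In the fits on library totals and TMM scaling, the scaling and the pseudocount changed together and cannot be told apart. *Aldh1a2* turned positive with the block without pair 3 (0.19). *Dhrs3* turned negative without the number 1 libraries (-0.20) and in the blocked DESeq2 fit without pair 1 (-0.20) or pair 2 (-0.020). With a library left out, ranges that crossed 0 were -0.017 to 1.54 (*Aldh1a1*), -1.81 to 0.25 (*Aldh1a3*), -1.02 to 0.88 (*Crabp1*), -1.02 to 0.73 (*Rarb*), -0.25 to 0.083 (*Rarg*), -0.24 to 0.26 (*Dhrs3*) and -0.047 to 0.31 (*Rxra*). With all 3 pairs, the replicate block changed no call of a named gene. edgeR and DESeq2 lowered *Aldh1a1* from 0.74 to 0.27 and 0.26, and *Crabp2* from 0.47 to 0.28 and 0.27. With the hexamer fixed as AGGTCA, DR5, DR2 and DR1 occurred in 0.00913%, 0.00913% and 0.0396% of windows. *Aldh1a3* rested on 13 to 238 reads per library and *Crabp1* on 18 to 235, which limits their precision.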
